A study of Mus musculus with 30 samples.

Results

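The members described here are 42 genes of glucose metabolism and of the transcriptional response to low oxygen. They were chosen by symbol from a list and are 42 of the 20563 genes in the authors' table of normalised counts. The list was fixed by symbol, with no threshold on the values, but earlier results of these data were known when it was chosen. All 42 had a normalised count of at least 10 in 2 or more of the 30 libraries, the minimum that 15712 genes of the table met, so every member was tested. Eno1, Pfkfb4 and Bnip3l passed it through scattered libraries and were listed at 0 in 21, 24 and 15 of the 30.

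The libraries were total RNA, depleted of ribosomal RNA, from mouse embryonic stem cells and from embryoid bodies, which are aggregates that form and differentiate when the stem cells are grown in suspension without LIF. Stem cells, kept on gelatin with LIF, are called day 0 here, and embryoid bodies were taken at day 4 and day 8. A Pali wild type line, a Pali1 knockout (Pali1-/-) and a double knockout (Pali1-/-, Pali2-/-) were grown, and so were a C129 wild type line and a line homozygous for a gene trap in Aebp2 (Aebp2gt/gt). Pali1 and Pali2 are Polycomb proteins whose loci are Lcor and Lcorl, and Aebp2 is a subunit of another form of the same complex, PRC2, which methylates lysine 27 of histone H3.

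Each of the 15 groups, 5 lines at 3 days, held 2 libraries that the design text calls biological duplicates. How many clones each knockout stands for is not stated in the sources used here, and so a line's own history and its genotype cannot be told apart. The C129 line was taken as the control of the gene trap because the design lists the 2 together, which the labels do not state outright. The descriptions of double knockout replicate 1 at day 0 and replicate 1 at day 4 each name the other culture state; titles and source names were followed.

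Glycolysis splits glucose into pyruvate. Hexokinases trap the sugar in the cell as a phosphate, phosphofructokinase and aldolase divide it, and the lower enzymes from Gapdh to Pkm recover ATP. Lactate dehydrogenase turns pyruvate and lactate into each other, and pyruvate dehydrogenase kinases such as Pdk1 restrain the use of pyruvate by pyruvate dehydrogenase. Under low oxygen the transcription factor HIF, a pair of an oxygen-regulated alpha subunit such as Hif1a and a stable partner, escapes the prolyl hydroxylases Egln1 and Egln3 and raises many of these genes. Mouse embryonic stem cells in the naive state use both glycolysis and respiration, the primed state that follows is known for heavier reliance on glycolysis, and the balance shifts again as lineages form.

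HIF binds the bases ACGTG or GCGTG, in either orientation, in the control regions of its targets. Promoter sequences from RefSeq (GRCm38.p6) were found for 39 of the 42 members, with 60 promoters in all, and the 250 bases before each start were searched on both strands. ACGTG was present in 27 of the 60 promoters, 45%, against 16.6% of all 32851 promoters of the same length. GCGTG was present in 53.3% of member promoters and 28.2% of all, and CACGTG, the E-box that contains ACGTG on both strands, in 10% and 6.02%. Some genes had several promoters with overlapping windows. Counted by gene, 59% of members and 18.5% of all genes held ACGTG. The promoters of all genes were not matched to those of the members for base content. Many members were chosen as genes of the response to low oxygen, so the higher shares are not independent of that choice. A match is a string of letters and not a measured binding site. The 5 promoters below belong to Pgk1, an enzyme of lower glycolysis, and to Hk2, Pdk1 and Ldhb, which recur through the comparisons, and Egln3, the member with the largest called difference in the Pali1 knockout at day 8. Capitals mark ACGTG or its reverse complement CACGT.
Pgk1, chrX:106186850-106187099, plus strand: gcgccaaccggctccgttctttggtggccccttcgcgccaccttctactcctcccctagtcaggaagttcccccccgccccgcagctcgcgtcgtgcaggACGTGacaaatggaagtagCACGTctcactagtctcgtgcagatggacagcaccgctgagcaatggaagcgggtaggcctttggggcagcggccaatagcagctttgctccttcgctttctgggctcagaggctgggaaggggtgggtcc
Hk2, chr6:82774455-82774704, minus strand: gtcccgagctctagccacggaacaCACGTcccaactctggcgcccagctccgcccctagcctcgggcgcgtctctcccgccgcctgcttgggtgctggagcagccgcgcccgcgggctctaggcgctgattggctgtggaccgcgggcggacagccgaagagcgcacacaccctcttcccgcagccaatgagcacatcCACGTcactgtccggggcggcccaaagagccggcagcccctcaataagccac
Egln3, chr12:54203875-54204124, minus strand: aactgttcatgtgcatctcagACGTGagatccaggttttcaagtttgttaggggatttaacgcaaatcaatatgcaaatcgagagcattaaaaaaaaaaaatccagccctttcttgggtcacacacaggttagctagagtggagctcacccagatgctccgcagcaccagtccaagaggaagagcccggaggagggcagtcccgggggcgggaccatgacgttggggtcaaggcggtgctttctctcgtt
Pdk1, chr2:71872974-71873223, plus strand: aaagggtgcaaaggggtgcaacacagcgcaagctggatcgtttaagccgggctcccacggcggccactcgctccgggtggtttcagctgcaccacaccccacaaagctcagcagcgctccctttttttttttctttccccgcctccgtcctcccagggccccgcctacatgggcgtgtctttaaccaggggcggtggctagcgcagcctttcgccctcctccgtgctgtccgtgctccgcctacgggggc
Ldhb, chr6:142507958-142508207, minus strand: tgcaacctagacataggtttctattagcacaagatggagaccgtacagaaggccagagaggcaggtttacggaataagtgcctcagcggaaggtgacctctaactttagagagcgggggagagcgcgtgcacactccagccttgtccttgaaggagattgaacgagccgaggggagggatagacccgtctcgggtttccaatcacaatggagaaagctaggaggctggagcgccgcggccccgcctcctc
Pgk1 and Hk2 each hold 2 copies of the ACGTG string, Egln3 holds 1, and the Pdk1 and Ldhb windows hold 0, although each of these last 2 holds 1 GCGTG.

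Values throughout are the authors' normalised counts, which are not divided by gene length, so levels are compared between libraries and not between genes. Fold changes and their standard errors come from limma on log2(normalised count + 4), in a fit of 1 mean per group over all 30 libraries, and each p was adjusted (Benjamini-Hochberg) over the 15712 genes of its comparison; a gene is called when the adjusted p is under 0.05. Totals ran from 15470082 to 18336791 normalised counts per library, and the reads behind them, estimated from the spacing of the lowest values, from 13198298 to 28151943. Duplicates correlated at 0.9478 to 0.9608 on the log2 scale. Aebp2 itself lay between 17.1 and 66.4 in the 6 gene trap libraries and between 1232 and 2784 in the 24 others. Lcor and Lcorl were not called in either knockout on any day: at day 8 Lcorl was 586 and 578 in the double knockout, below the 634 and 713 of Pali wild type (log2 -0.21, adjusted p = 0.543), and a gene-level count does not show whether the coding frame is intact. Replicate 1 of the gene trap at day 4 stood apart from its duplicate, with 36 of the 42 members higher in it. Counts of called members that rest on that library, and some leading members, are also given without it. Other results of that group include it.

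**Figure D1:**
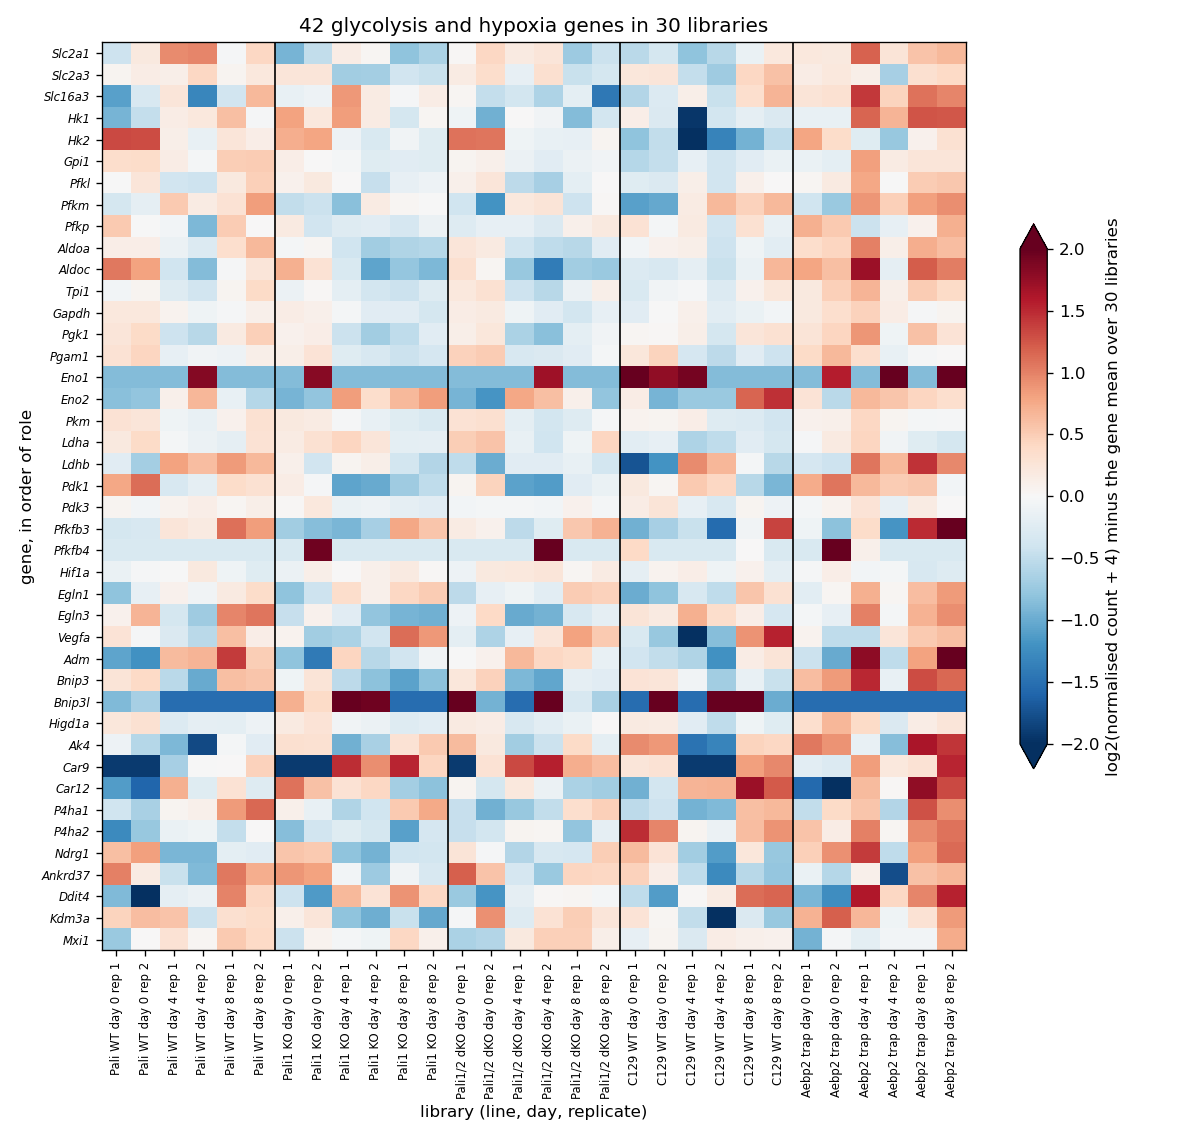
Each row is 1 of the 42 genes and each column 1 of the 30 libraries, grouped by line and day; colour is log2(normalised count + 4) minus the gene's mean over all libraries, cut at -2 and 2. The C129 columns are pale to blue for Hk2 beside the Pali wild type columns, and replicate 1 of the gene trap at day 4 is redder than its duplicate across most rows.

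Slc2a1 and Slc2a3 encode the glucose transporters GLUT1 and GLUT3, and Slc16a3 encodes a transporter that can export lactate. Transport itself was not measured. Slc2a1 ranged from 7134 to 30953 with a median of 14602, Slc2a3 from 19809 to 48626, and Slc16a3 from 56.5 to 433. Among the upper enzymes, the hexokinase Hk2 ranged over 10.1-fold, from 1215 to 12246, and Aldoc, a brain-type aldolase, over 8.79-fold, from 159 to 1400. The other hexokinase, Hk1, ranged from 33.3 to 342. The phosphoglucose isomerase Gpi1 (6306 to 16511), the aldolase Aldoa (13457 to 43507), the triose isomerase Tpi1 (7109 to 16807) and the phosphofructokinase subunits Pfkl (1178 to 3190), Pfkm (273 to 1204) and Pfkp (50.5 to 163) ranged less widely than these.

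Of the lower enzymes, Gapdh, which makes the first NADH of the pathway, spanned 1.77-fold (52269 to 92408) and the pyruvate kinase Pkm 1.75-fold (65419 to 114178). Pgk1, which makes the first ATP, ran from 10860 to 35680, the mutase Pgam1 from 13514 to 30601 and the neuronal enolase Eno2 from 48.7 to 322. Eno1 was listed at 0 in 21 of 30 libraries and reached 49.1, while its near-identical copy Eno1b, which is not a member, held 12070 to 42929; reads of the 2 cannot be told apart with certainty, so Eno1 is given no comparison.

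At the pyruvate branch, the lactate dehydrogenase subunit Ldha, which favours lactate, ranged from 15363 to 35017, and Ldhb, which favours pyruvate, ranged over 9.09-fold from 1182 to 10747. Pdk1 spanned 4.75-fold (679 to 3228) and Pdk3 1.52-fold (928 to 1409). Pfkfb3, which makes the activator of phosphofructokinase, ran from 53.8 to 663, and Pfkfb4 was listed at 0 in 24 libraries. Hif1a spanned only 1.48-fold, from 1420 to 2101, while its hydroxylases Egln1 and Egln3 spanned 401 to 1448 and 200 to 852.

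The widest ranges were among the targets of the response. The carbonic anhydrase Car12 spanned 21.5-fold (16.9 to 365), the peptide hormone Adm 19.3-fold (5.98 to 115) and the histone demethylase Kdm3a 18.9-fold (65.4 to 1235). The lowest Kdm3a value was that of C129 replicate 2 at day 4, whose duplicate held 383. The mTORC1 inhibitor Ddit4 spanned 13.0-fold (185 to 2408) and the angiogenic factor Vegfa 12.5-fold (157 to 1963). The mitochondrial members were Bnip3, a mitophagy receptor (918 to 5513), Higd1a, a respiratory chain regulator (992 to 2233), and the adenylate kinase Ak4 (144 to 1597). The collagen prolyl hydroxylases P4ha1 and P4ha2 held 83.1 to 408 and 95.4 to 663. Ndrg1 held 141 to 824, Ankrd37 29.2 to 254 and Mxi1, which antagonises Myc, up to 73.4. Car9 was listed at 0 in 7 libraries and reached 40.1, and Bnip3l was listed at 0 in 15 and reached 693 in 1 library, double knockout replicate 2 at day 4, so no fold is given for either.

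From day 0 to day 4, Hk2, Pgam1 and Ak4 fell in all 5 lines. In single lines 12.7% to 15.3% of all genes were called lower at day 4. The share of all genes called in 1 direction in as many lines was not counted, here or for day 8. In Pali wild type Hk2 counted 12246 and 12117 before, and 5298 and 4411 at day 4, a 2.52-fold fall (log2 -1.33, SE 0.21, adjusted p = 0.000112). In the C129 line it went from 2804 and 3468 to 1215 and 1929, a 2.03-fold fall (adjusted p = 0.00107), so the C129 stem cells began below where Pali wild type ended. The log2 change of Hk2 over 4 days lay between -1.33 and -0.96 in the 5 lines, and in none did the day 4 libraries overlap those of day 0. RNA came from whole cultures, in which fewer cells of a type and less RNA per cell cannot be told apart.

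Ak4 fell by 0.98 to 2.31 on the log2 scale. Its largest fall was in the C129 line, from 994 and 941 to 181 and 204 (4.95-fold, adjusted p = 5.68e-06), and in the gene trap it went from 1074 and 959 to 462 and 284 (2.78-fold, adjusted p = 0.000408). By day 8 Ak4 had returned in both, to 701 and 688 in C129 and to 1597 and 1394 in the gene trap, and its day 8 differences from day 0 in the 5 lines, from -0.48 to 0.55 on the log2 scale, were not called. Pgam1 fell by 0.42 to 0.78 on the log2 scale at day 4 and was still called lower at day 8 in 4 of 5 lines. At day 4 the Pgam1 call in the gene trap was lost without replicate 2 of day 4 or of day 0 (adjusted p up to 0.387 by limma), and that of Ak4 was lost in Pali wild type without day 4 replicate 2 or day 0 replicate 1 and in the Pali1 knockout without day 4 replicate 1.

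No test compared the day 4 change of a member between lines. Pdk1 was called lower at day 4 than at day 0 in 3 of the 5 lines. It fell in the 3 lines of the Pali set: from 2527 and 3228 to 1187 and 1303 in wild type (2.29-fold, adjusted p = 7.00e-05), from 1644 and 1463 to 710 and 738 in the Pali1 knockout (2.14-fold, adjusted p = 0.000136), and from 1548 and 2027 to 703 and 679 in the double knockout (2.56-fold, adjusted p = 2.56e-05). In C129 it stood at 1693 and 1529 on day 0 and 2124 and 1972 on day 4 (log2 0.35, adjusted p = 0.164), and in the gene trap at 2478 and 3112, then 2330 and 2101 (log2 -0.33, adjusted p = 0.187). At day 8 it was lower than at day 0 in 4 of the 5 lines, C129 (1006 and 784) and the gene trap (2153 and 1420) included. The exception was the double knockout, at 1268 and 1358 (log2 -0.43, adjusted p = 0.0757). The day 8 calls were lost without either day 8 library or day 0 replicate 2 in Pali wild type, without day 8 replicate 1 in the Pali1 knockout, and without replicate 2 of either day in the gene trap, but not in C129.

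Ldhb moved the other way. It rose by day 4 in Pali wild type, from 3376 and 2447 to 6914 and 6030 (2.24-fold, adjusted p = 0.00139), in C129 from 1182 and 1720 to 7582 and 6224 (4.81-fold, adjusted p = 2.36e-06), and in the gene trap from 3132 and 2942 to 8287 and 6176 (2.36-fold, adjusted p = 0.000713). In the Pali1 knockout it stood at 4241 and 3029, then 4072 and 4256 (log2 0.22, adjusted p = 0.56), and in the double knockout at 2763 and 1972, then 3361 and 3381 (log2 0.53, adjusted p = 0.116). At day 4 every library of the 2 wild type lines and the gene trap lay at 6030 or higher, and every library of both Pali mutants at 4256 or lower. Against Pali wild type at day 4, however, Ldhb was not called in either Pali mutant. Without gene trap replicate 1 of day 4 its log2 rises and falls were 1.02 for Ldhb, -1.34 for Hk2 and -1.82 for Ak4, all still called.

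Egln1, the main oxygen sensor, rose by day 8 in all 5 lines, by 0.76 to 1.33 on the log2 scale; in C129 it went from 401 and 457 to 1185 and 994 (2.52-fold, adjusted p = 6.38e-05). The double knockout's Egln1 call was lost without day 0 replicate 1. Ddit4 and P4ha1 were called higher at day 8 in 4 of 5 lines each. In single lines 14% to 23.4% of all genes were called higher at day 8, and the share called so in as many lines was not counted. Ddit4 went from 426 and 185 to 1588 and 1055 in Pali wild type (4.55-fold, adjusted p = 0.00051) and from 421 and 334 to 1574 and 2319 in the gene trap (5.05-fold, adjusted p = 0.000187). Car12 rose 11.4-fold in the gene trap, from 32.9 and 16.9 to 365 and 266 (adjusted p = 1.15e-06), and 4.39-fold in C129, from 51.7 and 79.4 to 350 and 248 (adjusted p = 7.24e-05), but fell 3.02-fold in the Pali1 knockout, from 226 and 157 to 63.2 and 56.8 (adjusted p = 0.00135). Hif1a was called in 1 of the 10 comparisons with day 0: it fell in the gene trap at day 8 by 0.35 on the log2 scale (adjusted p = 0.0428), a call that was lost in 7 of 9 alternatives.

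**Figure D2:**
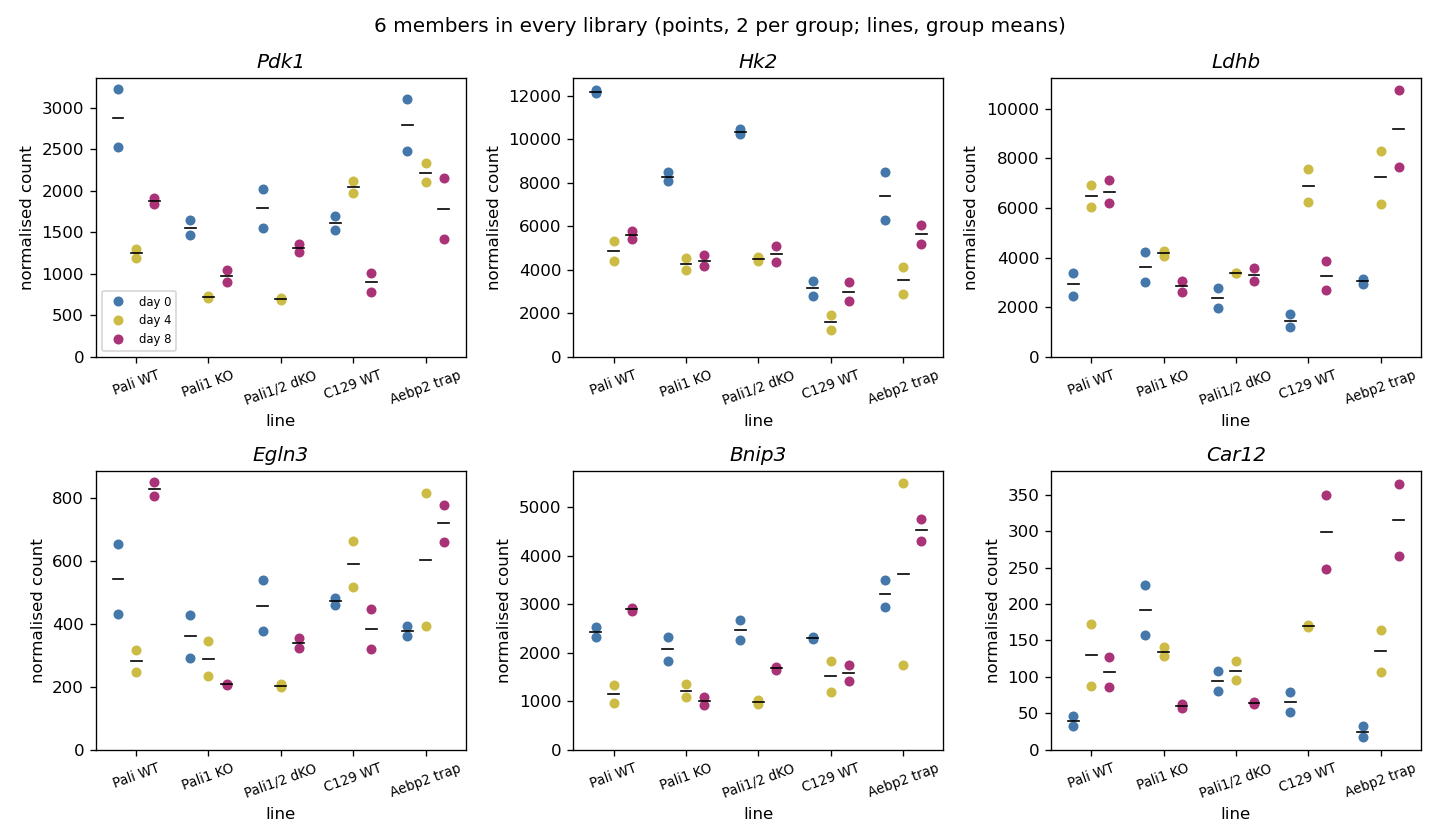
Normalised counts (linear axes from 0) of Pdk1, Hk2, Ldhb, Egln3, Bnip3 and Car12 in the 5 lines; points are single libraries, coloured by day, and short lines are means of the 2 libraries of a group. Hk2 is lowest in C129 on each day, and Pdk1 is lower at day 4 than at day 0 in the 3 Pali lines. The points of Ldhb at day 4 lie lower in both Pali mutants (at most 4256) than in the other 3 lines. That difference from Pali wild type was not called.

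Counted over all members, Pali wild type had 20 called at day 4 (8 higher, 12 lower), where 27.3% of all genes were called, 14.7% higher and 12.7% lower. At day 8 it had 11 (9 higher, 2 lower; 25.8% of all genes, 14% higher and 11.7% lower). The Pali1 knockout had 14 at day 4 (5 higher, 9 lower; 30.5% of all genes, 15.2% higher and 15.3% lower) and 19 at day 8 (6 higher, 13 lower; 42.1%, 22% higher and 20.1% lower). The double knockout had 20 at day 4 (4 higher, 16 lower; 27.5%, 13.6% higher and 13.9% lower) and 12 at day 8 (5 higher, 7 lower; 30.9%, 16.7% higher and 14.2% lower). C129 had 13 at day 4 (3 higher, 10 lower; 29.1%, 14% higher and 15% lower) and 13 at day 8 (10 higher, 3 lower; 45.8%, 23.4% higher and 22.4% lower). The gene trap had 10 at day 4 (5 higher, 5 lower; 30.6%, 15.7% higher and 15% lower) and 14 at day 8 (11 higher, 3 lower; 31.3%, 16.3% higher and 14.9% lower). The lower calls of the double knockout at day 4, 16 of 42 members, exceeded their background by the widest margin. Leaving out any 1 of its 4 libraries lowered the day 4 count of Pali wild type to between 7 and 12, and that of the double knockout fell to 11 or 12 without replicate 2 of day 4 or either day 0 library. Without both libraries whose descriptions name the other culture state, a setting added after the data were seen, the double knockout had 10 calls at day 4. At day 8 the count was 6 or 7 in Pali wild type without any 1 library, 9 in the Pali1 knockout without day 8 replicate 1, 4 in the double knockout without day 8 replicate 1 and 7 to 9 in the gene trap without day 8 replicate 2 or either day 0 library. At day 4 it was 8 or 9 in the Pali1 knockout without any 1 library, 8 in C129 without day 0 replicate 1, and 13 or 16 in the gene trap without replicate 1 or replicate 2 of that day. At day 8 the double knockout had 6 and the Pali1 knockout 11 without replicate 2 of day 0.

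Pdk1 was lower in the Pali1 knockout than in Pali wild type at all 3 days. The gene (chr2:71873224-71903858, plus strand, GRCm38) stood at 1644 and 1463 in the knockout and 2527 and 3228 in wild type at day 0 (1.84-fold lower, log2 -0.88, SE 0.18, adjusted p = 0.00755). At day 4 the values were 710 and 738 against 1187 and 1303 (1.71-fold lower, log2 -0.78, SE 0.18, adjusted p = 0.0238), and at day 8 they were 899 and 1039 against 1915 and 1841 (1.94-fold lower, log2 -0.96, SE 0.18, adjusted p = 0.00158). Knockout and wild type libraries did not overlap on any day. Pdk1 restrains the use of pyruvate by pyruvate dehydrogenase. The 3 days share no library, but they come from the same knockout and wild type lines.

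At day 0, 2 of 42 members were called, Pdk1 lower and Car12 higher (4.79% of all genes were called, 1.75% lower and 3.04% higher). Car12 (chr9:66713686-66766845, plus strand), which hydrates carbon dioxide at the cell surface, was 226 and 157 in the knockout against 45.7 and 32.1 in wild type (4.55-fold, log2 2.19, SE 0.35, adjusted p = 0.00138), with no overlap. Without knockout replicate 2 or wild type replicate 2 only Car12 was left. At day 4, 2 members were called, Pdk1 and Slc2a3, both lower (2.67% of all genes, 1.07% higher and 1.6% lower). The transporter Slc2a3 was 20025 and 20158 in the knockout against 35004 and 42912 in wild type (1.93-fold lower, adjusted p = 0.00867). No member was left without either knockout library or wild type replicate 2 of day 4, and 1 was left without wild type replicate 1, so the day 4 calls rest on all 4 libraries.

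Day 8 held most of the difference. Of 42 members, 34 had a negative log2 difference from wild type, 10 fell and 1 rose (13.6% of all genes were called, 6.52% lower and 7.07% higher), and the median difference of the members was -0.42 against 0.036 for all genes tested. All 9 upper enzymes had negative values and 3 of them fell: Aldoa, Gpi1 and Tpi1. Gpi1 (chr7:34201330-34230336, minus strand) was 7984 and 7915 against 13198 and 13282 in wild type (1.67-fold lower, log2 -0.74, SE 0.14, adjusted p = 0.00147). Aldoa was 14265 and 14622 against 27363 and 34086 (2.11-fold lower, log2 -1.08, SE 0.21, adjusted p = 0.00215). Both wild type libraries lay well above both knockout libraries for these 2 enzymes.

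Egln3 (chr12:54178981-54203860, minus strand), a hydroxylase that is itself a HIF target, moved furthest: 210 and 206 in the knockout and 806 and 852 in wild type at day 8 (3.93-fold lower, log2 -1.97, SE 0.30, adjusted p = 0.000304). Its knockout libraries were among the lowest of all 30. Ldhb was 3063 and 2626 against 7114 and 6193 (2.34-fold lower, adjusted p = 0.00236), and the mitophagy receptor Bnip3 was 918 and 1097 against 2932 and 2855 (2.88-fold lower, log2 -1.52, SE 0.34, adjusted p = 0.0059). Slc2a1, Pgk1 and Pkm fell as well, by 0.92, 0.69 and 0.46 on the log2 scale. Eno2, an enolase of neurons, was the member that rose, at 183 and 207 against 104 and 75.7 (2.15-fold, adjusted p = 0.0388). Ldha (log2 -0.24, adjusted p = 0.402), Hk2 (log2 -0.34, adjusted p = 0.313) and Hif1a (log2 0.26, adjusted p = 0.194) were not called.

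Egln3, Gpi1, Pdk1 and Aldoa were called at day 8 in all 9 alternatives. The count of 11 was 6 without knockout replicate 1, knockout replicate 2 or wild type replicate 2, and 18 (17 lower) in a fit of the 18 libraries of the Pali set alone; Eno2 was lost without any 1 of the 4 day 8 libraries. The change in the difference between day 0 and day 8 was itself called for 2 members (5.73% of all genes): Car12, by -2.95 (SE 0.50, adjusted p = 0.00369), and Ldhb, by -1.54 (SE 0.34, adjusted p = 0.0146). Car12 was thus higher in the knockout than in wild type at day 0, and at day 8 stood at 63.2 and 56.8 against 127 and 86.0, where the difference was not called (log2 -0.77, adjusted p = 0.167). The Ldhb interaction was lost without knockout replicate 1 or wild type replicate 2 of day 0 and without knockout replicate 2 of day 8. For Egln3 the change in difference was -1.39 (SE 0.42, adjusted p = 0.0594).

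Cell type markers moved with the day 8 result. The summed normalised count of 15 pluripotency markers was 38971 and 33044 in the Pali1 knockout and 80279 and 66909 in wild type, with 10 of the 15 lower and 0 higher, and the sum of 14 neuroectoderm markers was 14738 and 18356 against 7196 and 5156, with 7 higher and 0 lower. Pou5f1, the core pluripotency factor, was 8666 and 6640 in the knockout against 11925 and 11979 in wild type; the neural progenitor factor Sox1 was 3338 and 3554 against 1315 and 1023. The mesoderm factor T was 257 and 177 against 0 and 5.6, and the yolk sac gene Afp was 0 and 6.1 against 8.0 and 1947, the last in wild type replicate 2 only. Of the 16 visceral endoderm and yolk sac markers 2 were higher in the knockout (Foxa2 and Sox17) and 2 lower (Afp and Apoe), and their sum was 21397 and 22366 against 19128 and 40143. Their part in the result was not tested. At day 0, where Pdk1 and Car12 already differed, 3 of 15 pluripotency markers were lower and 1 of 14 neuroectoderm markers was higher. Of 9 fibroblast and mesenchyme markers 3 were higher (Acta2, Col1a2 and Tagln), the sum of that list being 5711 and 6718 against 2409 and 4586. At day 4 the 7 primed epiblast markers summed to 89718 and 87115 in the knockout and to 47118 and 45245 in wild type. The 16 visceral endoderm and yolk sac markers then summed to 19216.5 and 15484.6 against 41568.5 and 43551.1. The part of the markers on these days was not tested.

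In the double knockout, 1 member was called at day 0 (3.67% of all genes, 0.719% lower and 2.95% higher), 1 at day 4 (2.07%, 1.08% lower and 0.987% higher) and 4 at day 8 (7.21%, 3.08% lower and 4.13% higher), all of them lower. Pdk1 was the one called at both early days: 1548 and 2027 against 2527 and 3228 at day 0 (1.61-fold lower, log2 -0.69, SE 0.18, adjusted p = 0.0379) and 703 and 679 against 1187 and 1303 at day 4 (1.80-fold lower, adjusted p = 0.022). At day 8 it was 1268 and 1358 against 1915 and 1841, with no overlap but no call (log2 -0.52, adjusted p = 0.0916). The single and the double knockout were compared with the same wild type libraries, so the 2 sets of values are not independent of each other.

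At day 8 the 4 members called in the double knockout were Gpi1, Egln3, Aldoa and Ldhb, all lower and all also called in the single knockout. Egln3 was 325 and 356 against 806 and 852 (2.42-fold lower, log2 -1.28, SE 0.30, adjusted p = 0.0153). Gpi1 was 8652 and 8896 against 13198 and 13282 (1.51-fold lower, adjusted p = 0.014), Aldoa 14723 and 18605 against 27363 and 34086 (1.85-fold lower, adjusted p = 0.0172), and Ldhb 3563 and 3065 against 7114 and 6193 (2.01-fold lower, adjusted p = 0.0184). The median over members was -0.32 against 0.035 for all genes, and all 9 upper enzymes again had negative values. Bnip3 was 1705 and 1646 against 2932 and 2855 (log2 -0.79, SE 0.34, adjusted p = 0.189).

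These calls were fragile. The Pdk1 call at day 0 was lost without wild type replicate 2 or double knockout replicate 1, the day 4 call without any 1 of its 4 libraries, and at day 8 no member was left without wild type replicate 2 or double knockout replicate 1 and 1 without either of the other two; in the fit of the Pali set alone 8 members were called at day 8. The difference between day 8 and day 0 was called for 0 members (limma; 8 had an unadjusted p under 0.05, and 1.12% of all genes were called). Pluripotency markers summed to 47215 and 43464 in the double knockout at day 8, with 9 of 15 lower than wild type and 0 higher, and neuroectoderm markers to 15447 and 13364, with 7 of 14 higher and 0 lower; their part was not tested. Of 16 visceral endoderm and yolk sac markers 2 were higher (Foxa2 and Sox17) and 2 lower (Afp and Apoe), with a sum of 13432 and 14836 against 19128 and 40143. Afp was 0 and 2.2 at day 8, T 130 and 394, Sox1 2637 and 2115, and Pou5f1 8505 and 10058. At day 0, 5 of 7 primed epiblast markers were higher in the double knockout 3 of 15 pluripotency markers were lower, and 5 of 9 fibroblast and mesenchyme markers were higher (Acta2, Col1a1, Col1a2, Col3a1 and Tagln; list median 2.66 on the log2 scale, sum 5823 and 7431 against 2409 and 4586); their part in the Pdk1 call at day 0 was not tested.

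Set directly against each other, the 2 knockouts differed at 1 member. Slc2a3 at day 4 was 28914 and 40421 in the double and 20025 and 20158 in the single knockout (1.70-fold higher, log2 0.77, SE 0.18, adjusted p = 0.0469; 1.38% of all genes were called, 0.929% higher and 0.452% lower), and the call was lost without either single knockout library, without double knockout replicate 2, with TMM scaling and with no filter. At day 0 and day 8, 0 members were called (limma; 6 on each day had an unadjusted p under 0.05), where 3.07% and 1.37% of all genes were. The day 8 differences of Egln3 (log2 0.70, adjusted p = 0.343), Bnip3 (0.74, adjusted p = 0.397) and Pdk1 (0.44, adjusted p = 0.313) were all towards a smaller reduction in the double knockout, and none passed the test.

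**Figure D3:**
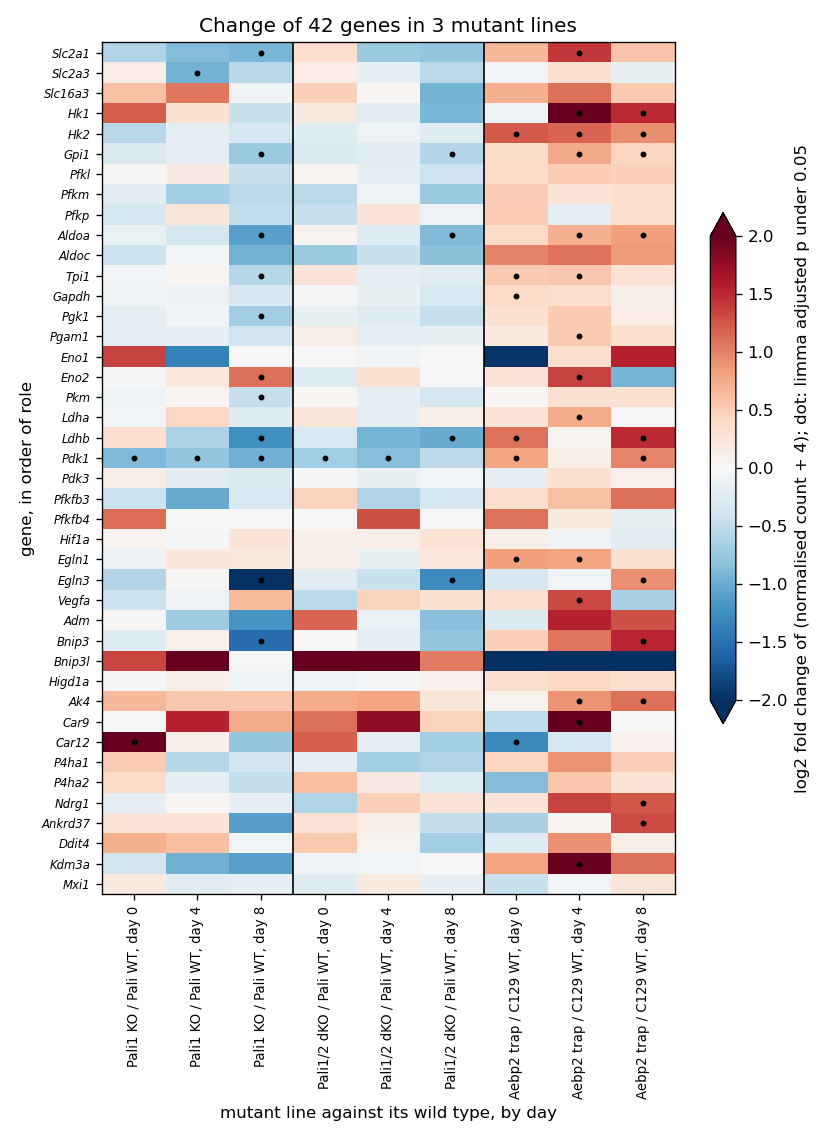
Log2 difference of each of the 42 genes (rows) in the 9 comparisons of a mutant line with its wild type at day 0, 4 or 8 (columns); colour is cut at -2 and 2 and a dot marks an adjusted p under 0.05. Blue prevails in the columns of both Pali mutants at day 8 (34 of 42 members negative in the Pali1 knockout). Red prevails in the gene trap at days 4 and 8 (36 and 35 of 42 positive). The gene trap at day 4 includes replicate 1, which stood apart from its duplicate.

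The Aebp2 gene trap differed from C129 in the other direction. Hk2 was higher on all 3 days: 8503 and 6302 against 2804 and 3468 at day 0 (2.35-fold, log2 1.23, SE 0.21, adjusted p = 0.000826), 4121 and 2894 against 1215 and 1929 at day 4 (2.25-fold, adjusted p = 0.00213), and 5188 and 6063 against 2540 and 3444 at day 8 (1.90-fold, adjusted p = 0.00377). The gene (chr6:82725025-82774454, minus strand) had no overlap between trap and control on any day. Its day 4 and day 8 calls were lost without C129 replicate 1 and in a fit of the 12 libraries of this set alone (adjusted p at most 0.0675 and 0.0614 over the alternatives), while the day 0 call held in every alternative run.

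At day 0, 7 of 42 members were called, 6 higher and 1 lower, with 13% of all genes called, 5.23% higher and 7.78% lower, and a member median of 0.31 against -0.03 for all genes. Ldhb was 3132 and 2942 against 1182 and 1720 (2.13-fold, adjusted p = 0.00595), Pdk1 was 2478 and 3112 against 1693 and 1529 (1.72-fold, adjusted p = 0.00691), and Egln1 was 697 and 824 against 401 and 457 (1.76-fold, adjusted p = 0.018). Gapdh and Tpi1 rose by 0.38 and 0.52 on the log2 scale. The member that fell was Car12, at 32.9 and 16.9 against 51.7 and 79.4 (2.45-fold lower, adjusted p = 0.0205), the same gene that was higher in the Pali1 knockout stem cells against their own control. Calls were lost without gene trap replicate 2 for Pdk1, Egln1 and Car12, without C129 replicate 2 for Pdk1 and Car12 and without C129 replicate 1 for Ldhb and Egln1. The count fell to 2 without gene trap replicate 2, to 3 without C129 replicate 1 and to 2 in a fit of the 12 libraries of this set alone.

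At day 4, 14 members were called and all were higher (9.01% of all genes were called, 4.05% higher and 4.96% lower), with 36 of 42 positive and a median of 0.55. Slc2a1 was 30953 and 16316 in the trap and 7767 and 9246 in C129 (2.65-fold, log2 1.41, SE 0.25, adjusted p = 0.00241), Gpi1 was 16511 and 10467 against 8347 and 7205 (1.69-fold, adjusted p = 0.00225), and Hk1 was 321 and 226 against 33.3 and 108 (4.23-fold, adjusted p = 0.00471). In each of these the first trap library was the higher of the pair. Car9 was called too, at 22.8 and 13.4 in the trap and listed at 0 in both libraries of C129. Ldha, Eno2, Pgam1, Kdm3a, Egln1, Vegfa, Aldoa, Tpi1 and Ak4 also rose, by 0.53 to 2.02 on the log2 scale with trap replicate 1 included. The 2.02 was that of Kdm3a, at 855 and 507 in the trap against 383 and 65.4 in C129. The value of 65.4, in C129 replicate 2, was the lowest of Kdm3a in the 30 libraries.

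This day depended on 1 library. Without gene trap replicate 1, 4 members were called, and without replicate 2, 25; the count was 6 without C129 replicate 1, 7 without C129 replicate 2, and 4 in the fit of this set alone. Bnip3 was an example, at 5513 in trap replicate 1 and 1743 in replicate 2 against 1837 and 1186 in C129: the groups overlapped and the difference was not called (log2 1.07, adjusted p = 0.059). Slc2a1 kept its call in every alternative run, with a log2 difference of 0.94 without trap replicate 1. Gpi1 and Hk2 were also still called without that library, at 0.43 and 0.92. Of the other leading members Gpi1 and Hk2 lost it in the fit of this set alone, and Hk1 without trap replicate 1 or C129 replicate 1.

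At day 8, 11 members were called and all were higher, with 35 of 42 positive and a median of 0.34 (20.1% of all genes were called, 9.59% higher and 10.6% lower). Ldhb (chr6:142490249-142507957, minus strand) was 10747 and 7658 against 3840 and 2684 (2.82-fold, log2 1.498, SE 0.24, adjusted p = 0.00027), Pdk1 was 2153 and 1420 against 1006 and 784 (1.97-fold, adjusted p = 0.000768), and Bnip3 (chr7:138890836-138909519, minus strand) was 4765 and 4298 against 1744 and 1414 (2.88-fold, log2 1.52, SE 0.34, adjusted p = 0.00366). No trap library overlapped a control library for these genes. All 9 upper enzymes had positive values and 4 rose: Hk1, Hk2, Gpi1 and Aldoa. Ak4, Egln3, Ndrg1 and Ankrd37 rose by 1.10, 0.92, 1.24 and 1.30 on the log2 scale.

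The day 8 count was 4 without trap replicate 1, 6 without trap replicate 2, 7 without C129 replicate 1, 6 without C129 replicate 2 and 3 in the fit of this set alone, which ended the calls of Hk2 and Bnip3; Ldhb and Pdk1 kept theirs throughout. The change of the difference from day 0 to day 8 was called for 1 member, Ankrd37, a nuclear ankyrin repeat protein (1.94, SE 0.63, adjusted p = 0.0453; 15.3% of all genes), a call kept in 2 of 13 alternatives. Pluripotency markers summed to 78128 and 70985 in the trap at day 8 and to 27820 and 20304 in C129, with 13 of 15 higher and 0 lower, and neuroectoderm markers to 4380 and 6007 against 10478 and 10116, with 8 of 14 lower and 0 higher. Pou5f1 was 10363 and 10731 against 5742 and 2525, Sox1 447 and 953 against 3328 and 3062, Afp 175 and 123 against 118 and 97.7, and T 7.2 and 0 against 41.6 and 0. Of 16 visceral endoderm and yolk sac markers 14 had negative differences, with 2 lower (Foxa2 and Sox17) and 1 higher (Apoe), and their sum was 22656 and 24277 in the trap against 27332 and 26315 in C129. Their part was not tested. At day 4, where 14 members rose, 1 pluripotency marker was higher and 3 were lower. The 7 primed epiblast markers then summed to 82162 and 92316 in the trap and to 54152 and 63564 in C129. The 10 mesoderm markers summed to 325 and 206 against 418 and 743. The part of these markers was not tested either.

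The 2 wild type lines also differed from each other. At day 0, 9 of 42 members were called, 3 higher and 6 lower in C129 (21.1% of all genes, 12% higher and 9.06% lower). Hk2 was 2804 and 3468 in C129 and 12246 and 12117 in Pali wild type (3.90-fold lower, log2 -1.96, SE 0.21, adjusted p = 3.13e-06), P4ha2 was 663 and 471 against 95.4 and 139 (4.73-fold higher, log2 2.24, SE 0.31, adjusted p = 6.3e-05), and Ak4 was 994 and 941 against 477 and 344 (2.37-fold higher, adjusted p = 0.00291). None of these overlapped. Gpi1, Pdk1 and Ldhb fell by 0.88, 0.83 and 1.01 on the log2 scale, the last not called without replicate 1 of either line, and Car9 was 13.8 and 14.3 in C129 and at 0 in each Pali wild type library.

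At day 4, 10 members differed (2 higher, 8 lower; 15.9% of all genes, 8.35% higher and 7.57% lower). Slc2a1 was 7767 and 9246 in C129 and 26321 and 26839 in Pali wild type (3.14-fold lower, adjusted p = 0.000286), Hk2 was 1215 and 1929 against 5298 and 4411 (3.15-fold lower, adjusted p = 4.75e-05), and Slc2a3 was 23306 and 19809 against 35004 and 42912 (1.80-fold lower, adjusted p = 0.00403). Pdk1, which had not fallen in C129, was 2124 and 1972 against 1187 and 1303 (1.64-fold higher, adjusted p = 0.0102), and Egln3 was 664 and 518 against 317 and 247 (2.08-fold higher, adjusted p = 0.0208). The count was 4 without C129 replicate 1 or Pali wild type replicate 2 and 5 without Pali wild type replicate 1. The Pdk1 call was lost without replicate 1 of either line, that of Slc2a3 without Pali wild type replicate 2, and that of Egln3 without C129 replicate 1 or Pali wild type replicate 2.

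By day 8 the direction for Pdk1 had turned: 1006 and 784 in C129 and 1915 and 1841 in Pali wild type (2.11-fold lower, log2 -1.08, SE 0.18, adjusted p = 0.000398). Of 11 members called (17.3% of all genes, 8.86% higher and 8.49% lower), 8 were lower, among them Gpi1 at 8042 and 8566 against 13198 and 13282 (1.59-fold, adjusted p = 0.00201) and Pkm at 70358 and 65419 against 90708 and 105240 (1.44-fold, adjusted p = 0.00436). Eno2 was 263 and 322 against 104 and 75.7 (3.18-fold higher, adjusted p = 0.00217), Car12 350 and 248 against 127 and 86.0 (2.75-fold higher, adjusted p = 0.00744). The gap in Hk2 narrowed, at 2540 and 3444 against 5782 and 5390 (1.89-fold lower), and the change of its difference from day 0 was called (1.05, SE 0.29, adjusted p = 0.0229; 14.2% of all genes). That last call was kept in 7 of 12 alternatives. The Pkm call was lost without replicate 2 of either line, that of Car12 without C129 replicate 1 or Pali wild type replicate 2 and that of Hk2 without C129 replicate 1. The count was 5 or 6 whichever of the 4 libraries was left out, and 13 of 15 pluripotency markers were lower in C129 at day 8 (27820 and 20304 against 80279 and 66909); their part was not tested.

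The day 8 comparisons share libraries: C129 is the control of the gene trap and is itself set against Pali wild type, which is also the control of both Pali mutants. The day 8 levels of Ldhb fell into a high set, Pali wild type (7114 and 6193) and the gene trap (10747 and 7658), and a low set, C129 (3840 and 2684), Pali1 knockout (3063 and 2626) and double knockout (3563 and 3065). The same lines stood high and low at day 8 for the sum of pluripotency markers. Its lowest value in the high set was 66909 and its highest in the low set 47215. At day 0 that sum was higher in every line, from 96875 to 149834, while Ldhb lay between 1182 and 4241. The part of the markers was not tested.

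Other genes of the pathway were read from 3 lists. Among other glycolysis and glucose genes, 32 of 35 were tested. At day 8, 0 rose and 6 fell in the Pali1 knockout, 0 and 3 in the double knockout, and 6 rose and 1 fell in the gene trap. That was 18.8%, 9.38% and 21.9% of the list, against 13.6%, 7.21% and 20.1% of all genes. Pdk4, a paralogue of Pdk1, was 128 and 114 in the Pali1 knockout and 350 and 306 in wild type, and 514 and 431 in the gene trap against 146 and 111 in C129. Ldhd, the D-lactate dehydrogenase, was 39.1 and 39.6 against 129.4 and 93.3 in the first comparison and 142 and 111 against 46.3 and 33.2 in the second. Eno1b was 12665 and 12070 in the Pali1 knockout and 17700 and 21146 in wild type at day 8.

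Of the HIF pathway components (16 of 18 tested), Epas1, the HIF-2 alpha subunit, was lower in the Pali1 knockout on all 3 days. It was the 1 gene of the list called on days 0 and 4, while at day 8 Cited2, which competes with HIF for its coactivator, and Siah2, a ubiquitin ligase for the Egln enzymes, were higher (963 and 1101 against 523 and 578, and 265 and 260 against 176 and 131). In the gene trap at day 8 these 2 were the genes of the list that were called, both lower (12.5% of the list, 20.1% of all genes). The calls in the Pali1 knockout were 6.25%, 6.25% and 18.8% of the list at days 0, 4 and 8. The shares of all genes were 4.79%, 2.67% and 13.6%. Epas1 was 619 and 536 against 1271 and 1358 at day 0 (log2 -1.19, adjusted p = 0.00958), 114 and 77.1 against 565 and 361 at day 4 (log2 -2.22, adjusted p = 6.3e-05) and 177 and 153 against 713 and 707 at day 8 (log2 -2.08, adjusted p = 4.5e-05). The double knockout had 1105 and 1364 at day 0 and 418 and 412 at day 8, where it was not called, and 199 and 170 at day 4 (log2 -1.28, adjusted p = 0.0135). Hif1a, the alpha subunit among the members, was called in 0 of the 9 comparisons of a mutant with wild type (limma; log2 differences from -0.23 to 0.27).

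Other hypoxia targets (37 of 39 tested) did not share 1 direction at day 8. In the Pali1 knockout 4 rose and 5 fell, in the double knockout 2 and 3, and in the gene trap 8 and 5. That was 24.3%, 13.5% and 35.1% of the list, against 13.6%, 7.21% and 20.1% of all genes. Angptl4, a secreted inhibitor of lipoprotein lipase, was 84.8 and 76.2 against 242 and 238 in the Pali1 knockout and its wild type and 301 and 239 against 82.2 and 44.5 in the gene trap and C129. Bhlhe40, a repressor of the circadian and hypoxia responses, was 338 and 214 against 1658 and 906, and 1091 and 1158 against 410 and 284. In the time courses at day 4 the falling genes of this list outnumbered the rising ones in all 5 lines. The counts were 9 to 4 in Pali wild type, 9 to 5 in the Pali1 knockout and 9 to 4 in the double knockout. They were 11 to 5 in C129 and 7 to 5 in the gene trap. In that order the calls were 35.1%, 37.8%, 35.1%, 43.2% and 32.4% of the list. The shares of all genes were 27.3%, 30.5%, 27.5%, 29.1% and 30.6%, so the gene trap lay near its background.

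Differences between duplicates of 1 group were shared by many members. In the gene trap at day 4, 10 of 42 members differed over 2-fold between duplicates, 9 of them higher in replicate 1; that is 23.8% of members and 13.1% of all genes. The median over members of replicate 1 minus replicate 2 was 0.64 on the log2 scale there, and between -0.0956 and 0.214 in the other 14 groups. Over the 15 duplicate differences, the 37 members with a mean of at least 50 correlated with each other at a median r of 0.248, against 0.00298 for 10644 genes of that level. Without the gene trap at day 4 the 2 values were 0.0683 and 0.00333, so most of the excess of the members stood in that group. These correlations are descriptions, with no test, since genes of 1 library share its depth and preparation.

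Bnip3, chosen after its values were seen, was compared with the other members. By the likeness of duplicate differences to its own, the nearest members over 15 groups were Pgk1 (r 0.893, and 0.74 without the gene trap at day 4), Higd1a (0.858 and 0.587), Pgam1 (0.853 and 0.658), Aldoa (0.842 and 0.645), Pfkl (0.842 and 0.701) and Egln1 (0.84 and 0.758). Vegfa ran opposite (-0.724 and -0.789). Over the levels in all 30 libraries, which share lines and days, Bnip3 lay nearest to Aldoa (0.931) and Pgk1 (0.896).

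**Figure D4:**
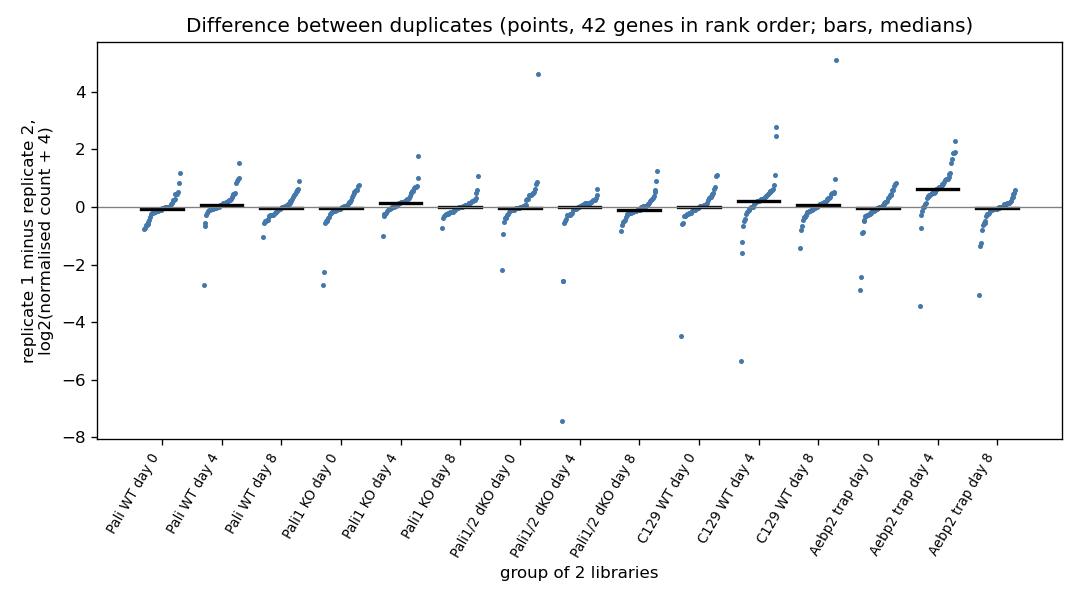
Replicate 1 minus replicate 2 on the log2(normalised count + 4) scale for the 42 genes in each of the 15 groups; points are genes in rank order and bars are medians. The median of the gene trap at day 4 is 0.64 and those of the other groups lie between -0.0956 and 0.214.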

How the data were processed

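RNA-seq of 30 libraries was read from 1 table of the whole series. Its values are a signal, the normalised counts that the authors deposited; kallisto 0.43.1, HISAT2 2.0.5, DESeq2 and mm10 appear in the submitters' processing notes, with no role given. Kits were TruSeq stranded total RNA after Ribo-Zero, run on a HiSeq 2500, per the labels' protocols. In each library 81.3 to 86.1% of values under 8 steps were within 0.001 of a whole step, so reads were not recovered and no count model was used. The sources used here do not give how reads of near-identical genes were shared out.

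Values were tested with limma 3.58.1 (R 4.3.3; trend and robust settings, 15 residual degrees of freedom, pseudocount 4, at least 10 in 2 libraries) in 29 comparisons, with checks on simulated data. Alternatives were a pseudocount of 1, no filter, rescaling by trimmed means of M-values (TMM), libraries of the same parent only, a replicate block, and each library left out. Columns headed only WT were matched to the Pali wild type samples by day and replicate. P-values measure the spread between these duplicates.

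Members and lists were chosen with earlier results of these data known. Named with values per library were up to 4 called members a direction and comparison with the lowest adjusted p and no overlap, Aebp2, Lcor and Lcorl, up to 2 called genes a direction from each other list, and Pou5f1, Afp, Sox1 and T.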

Additional observations from a re-analysis of the deposited data

Results flagged for a closer look

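The difference between 2 lines was not the same at day 8 and day 0 for 4 results, by limma's test of the change in the difference. For the Pali1 knockout 4.76% of members and 5.73% of all genes were called. The shares were 2.38% and 15.3% for the gene trap, and 2.38% and 14.2% for C129 against Pali wild type. Members were thus called no more often than genes in general. For Car12, Pali1 knockout against Pali wild type, the change was -2.95 on the log2 scale (SE 0.50, adjusted p = 0.00369). The knockout libraries were 226 and 157 against 45.7 and 32.1 at day 0, and 63.2 and 56.8 against 127 and 86.0 at day 8. For Ldhb in the same comparison the change was -1.54 (SE 0.34, adjusted p = 0.0146), from 4241 and 3029 against 3376 and 2447 to 3063 and 2626 against 7114 and 6193.

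For Ankrd37, gene trap against C129, the change was 1.94 (SE 0.63, adjusted p = 0.0453), from 99.5 and 72.2 against 152 and 120 to 166 and 176 against 72.7 and 62.0. For Hk2, C129 against Pali wild type, the change was 1.05 (SE 0.29, adjusted p = 0.0229), from 2804 and 3468 against 12246 and 12117 to 2540 and 3444 against 5782 and 5390. The Car12 call was kept in 13 of 13 alternatives, that of Ldhb in 10 of 13, that of Hk2 in 7 of 12 and that of Ankrd37 in 2 of 13.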

How the results depend on the processing

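No alternative turned the sign of a leading called member, of which up to 4 a direction were followed in each comparison. TMM rescaling moved the median of all genes by at most 0.0478 and turned the sign of no called member. Under the other alternatives the signs of the remaining called members were not compared. Where a count of called members moved by over 1.5 times, the cause was not tested. With a pseudocount of 1 the gene trap's change of difference had 0 called members. With no filter it had 0, and the double against single knockout at day 4 had 0; with TMM rescaling that comparison had 0 at day 4 and 1 at day 0. With libraries of the same parent only, a fit with fewer samples, called members were 18 for the Pali1 knockout at day 8 and 6 for its change of difference, 2, 8 and 1 for the double knockout at day 4, at day 8 and in its change of difference, and 2 for double against single knockout at day 0. For the gene trap they were 2, 4 and 3 at days 0, 4 and 8, 8 for its day 8 course and 0 for its change of difference. Without both libraries whose descriptions name the other culture state, the day 4 course of the double knockout had 10.

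Each library was also left out in turn, the lone one left in its group being assumed to vary like the others. Called members ranged over days 0, 4 and 8 from 1 to 2, 0 to 1 and 6 to 9 for the Pali1 knockout, 0 to 1, 0 to 0 and 0 to 1 for the double knockout, 2 to 7, 4 to 25 and 4 to 7 for the gene trap, 0 to 1, 0 to 1 and 0 to 0 for double against single knockout, and 6 to 8, 4 to 7 and 5 to 6 for C129 against Pali wild type. The courses to days 4 and 8 ranged from 7 to 12 and 6 to 7 in Pali wild type, 8 to 9 and 9 to 15 in the Pali1 knockout, 11 to 15 and 4 to 10 in the double knockout, 8 to 14 and 10 to 12 in C129, and 7 to 16 and 7 to 10 in the gene trap. Changes of difference ranged from 1 to 2 for the Pali1 knockout, 0 to 0 for the double knockout, 0 to 1 for the gene trap and 0 to 2 for C129 against Pali wild type.

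Replicate numbers did not pair the libraries: same-numbered deviations within a line correlated at -0.0332 to 0.0546, with 0 of 15 pairs over 0.1. With a replicate block, called members were 2 and 2 for the double knockout at days 0 and 4, 1 for double against single knockout at day 0, and 1 and 2 for the changes of difference of the double knockout and the gene trap; no other count moved by over 1.5 times under the block. With 2 libraries a group, a difference that was not called is not shown to be absent.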

Other observations

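The ratio of Ldhb to Ldha, both in normalised counts with no correction for length, was 0.125 and 0.0798 in Pali wild type stem cells and 0.0584 and 0.0821 in C129 stem cells. At day 4 it was 0.301 and 0.278 in Pali wild type, 0.494 and 0.378 in C129 and 0.263 and 0.277 in the gene trap, but 0.129 and 0.153 in the Pali1 knockout and 0.158 and 0.189 in the double knockout. At day 8 the highest ratios were those of the gene trap, 0.542 and 0.416, and C129 had gone down to 0.192 and 0.146. The Pali1 knockout held 0.149 and 0.127 and the double knockout 0.161 and 0.0965 at day 8, against 0.343 and 0.216 in Pali wild type. Every library of the 2 Pali mutants in embryoid bodies lay below every Pali wild type embryoid body library. No test was run on the ratio.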
